A study of Mus musculus with 25 samples.

Results

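The hypothalamic response 18 h after tumor cell injection was examined on the 8 of 25 arrays in the series that carry the 18 h label, which come from 5 of the 13 biological replicates. The tumor-injected mice were male BALB/c mice aged 8 weeks that received 1000000 CT-26.WT cells, a murine colon carcinoma line, under the skin in 300 µl of PBS, and their controls were mice of the same strain, sex and age that received 300 µl of PBS alone. Both were killed by decapitation 18 h later, and hypothalamic RNA of a tumor-injected and a PBS sample was hybridised together on a printed array of 10080 spots, one in Cy3 and the other in Cy5. Total RNA replicates 3, 4 and 5 were each hybridised on 2 arrays with the dyes exchanged, whereas polyA RNA replicates 1 and 2 had 1 array each, in opposite dye orientations. The polyA arrays were registered as a different array platform from the 18 h total RNA arrays. It is not stated whether a replicate is 1 mouse or a pool, nor whether a palpable tumor had formed, so the groups are described by what was injected. Every value below is a log2 ratio of tumor over PBS, the mean of both dye orientations for total RNA, and positive values are higher in tumor-injected mice. Which channel carried which dye was read from the order of the labels, so this direction is likely rather than settled.

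The hypothalamus holds the neurons that set food intake, body temperature, water balance and the pituitary hormone axes. Circulating cytokines reach it through vessel walls, circumventricular organs and nerves, and in inflammation and cancer cachexia it is known to answer with altered feeding peptides, glucocorticoid release and immune gene expression. An interval of 18 h after injection precedes the growth of a sizeable tumor, and the comparison asks which hypothalamic transcripts differ so early.

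In replicates 3 and 5 the part of the array ratios that turned with the dye spread more over genes than the mean of both orientations. In replicate 4 it did not. That mean holds differences between samples and noise as well as any effect of the injection. Over the 2490 genes tested below, the SD of the dye part of the ratio, which is 0.5 times the difference between the orientations, was 0.40 in replicate 3, 0.35 in replicate 4 and 0.38 in replicate 5, and that of their mean, the tumor over PBS value, was 0.22, 0.36 and 0.18. Over genes measured on both arrays of a replicate, the ratios of the Cy5 and Cy3 orientations correlated at -0.56 in replicate 3 and -0.47 in replicate 5, and at 0.04 in replicate 4. In replicate 3, 37.8% of 4083 genes kept their sign when the dyes were exchanged. Arrays of different replicates in the same orientation ran together instead, with r = 0.45 between the Cy3 arrays and 0.31 between the Cy5 arrays of replicates 3 and 5. A set of 35 genes had a ratio below -1 with tumor in Cy5 and above 1 with tumor in Cy3 in both replicate 3 and replicate 5. One of them was Ezh1, which encodes a histone H3 lysine 27 methyltransferase. Its ratios with tumor in Cy5 were -2.47, -1.98 and -1.78 in replicates 3, 4 and 5, and with tumor in Cy3 they were 2.49, 1.05 and 2.87. The mean over both orientations was 0.03 ± 0.18 (SE, n = 3), so each orientation alone would have given a large ratio of opposite sign. No gene ran the other way, above 1 in Cy5 and below -1 in Cy3, in any of the 3 replicates.

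**Figure D1:**
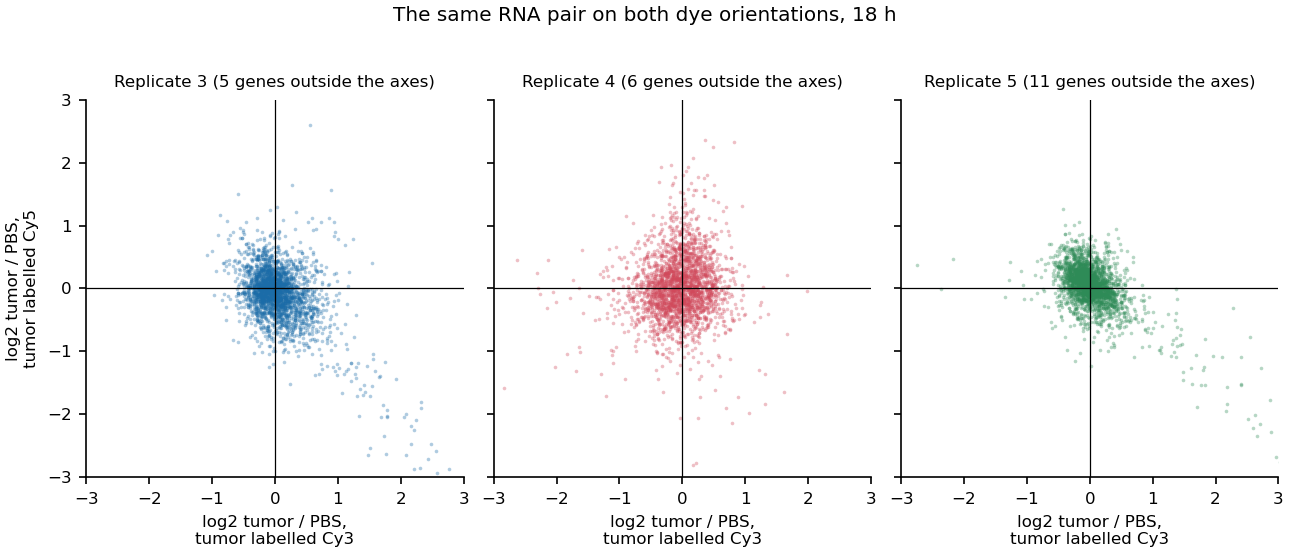
Log2 tumor over PBS of the 2490 genes tested at 18 h, with tumor labelled Cy5 (vertical axis) against tumor labelled Cy3 (horizontal axis), 1 panel for each total RNA replicate and 1 point for each gene. In replicates 3 and 5 the points run from upper left to lower right, with a tail of genes low in Cy5 and high in Cy3, and in replicate 4 they form a round cloud.

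After the orientations were averaged, the replicates shared little. The correlations across genes were 0.03 between replicates 3 and 4, -0.00 between replicates 3 and 5, and 0.02 between replicates 4 and 5. The spread of the ratios over genes (SD) was 0.23 in replicate 3, 0.35 in replicate 4 and 0.22 in replicate 5. It was 0.39 in polyA replicate 1 and 0.91 in polyA replicate 2, where 12.7% of genes lay beyond 1 in either direction. The replicate 4 array with tumor in Cy5 stood apart in its brightness order, with a median rank correlation of 0.11 with the other 18 h arrays, against 0.24 to 0.39 for each of the others. List medians are therefore also given without replicate 4 where they turn sign or move by more than 1.5 times, over the genes measured in replicates 3 and 5, whose overall median was 0.01.

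No gene passed the test at 18 h. Of 8726 genes with a named probe, 8371 were measured in at least 1 total RNA replicate and 2490 in all 3, and these were tested with limma. Each SE is that of limma, where n = 3 counts the 18 h replicates. It also draws on the later replicates and on the other genes, so it can differ from the SE of the 3 values alone. The number called at an adjusted p of 0.05 was 0 (0% of genes tested), and the smallest adjusted p was 0.892. At an unadjusted p of 0.05 the count was 126 (5.06%), of which 67 lay above 0 (2.69%) and 59 below (2.37%), so the share at this level was close to the level itself. The 95% interval of a gene reached a median of 0.26 to either side of its estimate, and for 2457 genes it reached less than 0.5. These intervals take no account of the number of genes, and estimates of 0.5 and more did not pass the adjusted test. The genes not measured in all 3 replicates were not assessed. In the lists below, members without a named probe are counted as listed and not tested. In bulk tissue, fewer cells of a type and less RNA per cell cannot be told apart. All 3 total RNA replicates lay above 0 for 322 genes (12.9%) and below 0 for 284 (11.4%). All 6 arrays lay above 0 for 23 genes (0.924%) and below 0 for 24 (0.964%).

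The genes with the smallest p above 0 are given as a description, since none passed the adjusted test. Oxct2a (probe 102), a testis-enriched form of the enzyme that activates ketone bodies for oxidation, was at 0.41, 0.62 and 0.63 in replicates 3, 4 and 5, and all 6 arrays were above 0. Its estimate was 0.55 ± 0.11 (SE, n = 3, unadjusted p = 0.000675, adjusted p = 0.892), and it was not measured on the polyA arrays. Cbll1 (probe 282), an E3 ubiquitin ligase also known as Hakai and a partner of the RNA m6A methyltransferase complex, was at 0.55, 0.49 and 0.46 in the total RNA replicates. It was also above 0 in both polyA replicates, at 0.38 and 0.45, so that its 5 replicate values lay close together. The estimate for Cbll1 from total RNA was 0.50 ± 0.11 (SE, n = 3, unadjusted p = 0.00118). Among the 818 tested genes that were measured on all 8 arrays, Cbll1 was 1 of 2 that lay above 0 on every array. The other was Lmx1b, a homeodomain transcription factor of developing neurons, whose values were smaller, from 0.04 to 0.35 in total RNA.

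Cavin1, which coats caveolae, was at 0.60, 0.32 and 0.45 in total RNA but at -0.41 in polyA replicate 1. Snap91, the clathrin assembly protein AP180 of synaptic vesicle recycling, was at 0.22, 0.58 and 0.49, and at 0.09 and -0.19 in the polyA replicates. Zswim1 was at 0.48, 0.47 and 0.28 in total RNA and at 0.09 in polyA replicate 1. These 3 genes, like the pair before them, were above 0 on 6 of 6 total RNA arrays, and the polyA values did not keep their size. B3galt4, a galactosyltransferase of ganglioside synthesis, Lsm11, a subunit of the U7 snRNP that processes histone mRNA, Fundc2, a mitochondrial outer membrane protein, Ctnnb1, the beta-catenin gene, and Xpo6, the nuclear exporter of actin, had estimates of 0.35 to 0.54 and were above 0 on 5 of 6 arrays. Ctnnb1 and Xpo6 were near 0 in replicate 5, at 0.03 each, and owed their estimates to replicates 3 and 4. Scg2, which encodes the granule protein secretogranin II, Gnas, the stimulatory G protein alpha subunit, and Arl1, a Golgi GTPase, completed the genes chosen for size among those above 0 on all 6 arrays. Scg2 was at 0.10, 0.89 and 0.21 and Gnas at 0.11, 0.83 and 0.20, so in both the replicate 4 value was several times the others. Their estimates without replicate 4 were 0.15 for Scg2 and 0.16 for Gnas.

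Below 0, the smallest p belonged to Dynlrb2 (probe 3354), a dynein light chain found in ciliated cells. It was at -0.45, -0.53 and -0.60 in replicates 3, 4 and 5, with an estimate of -0.53 ± 0.11 (SE, n = 3, unadjusted p = 0.000914), and 5 of 6 arrays were below 0. Scd2 (probe 3321), the stearoyl-CoA desaturase prominent in brain, had the closest replicate values of those below 0 on every array, at -0.30, -0.33 and -0.26. The polyA replicates gave 0.16 and -0.53 for Scd2, on either side of 0. Prkar2a, a regulatory subunit of protein kinase A, was at -0.18, -0.61 and -0.61, and Sertad3, a transcriptional coregulator, was at -0.33, -0.53 and -0.23. Both were below 0 on 6 of 6 arrays, as were Spsb1, a SOCS box protein, Actb, cytoplasmic beta-actin, Dlg4, the postsynaptic scaffold PSD-95, Mef2c, an activity-regulated transcription factor, Ergic1, a protein of the compartment between the endoplasmic reticulum and Golgi, and the uncharacterised 4930431P19Rik. Actb was at -0.15, -0.84 and -0.33 by its chosen probe and averaged -0.49 and -0.38 by its other probes. Dlg4 was at -0.19, -1.17 and -0.36 and Mef2c at -0.09, -0.97 and -0.19, with the lowest value of each in replicate 4. Dtx1, a ubiquitin ligase of Notch signalling, Pip5k1a, a phosphoinositide kinase, and Tubb2b, a neuronal beta-tubulin, had estimates of -0.38, -0.38 and -0.40.

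**Figure D2:**
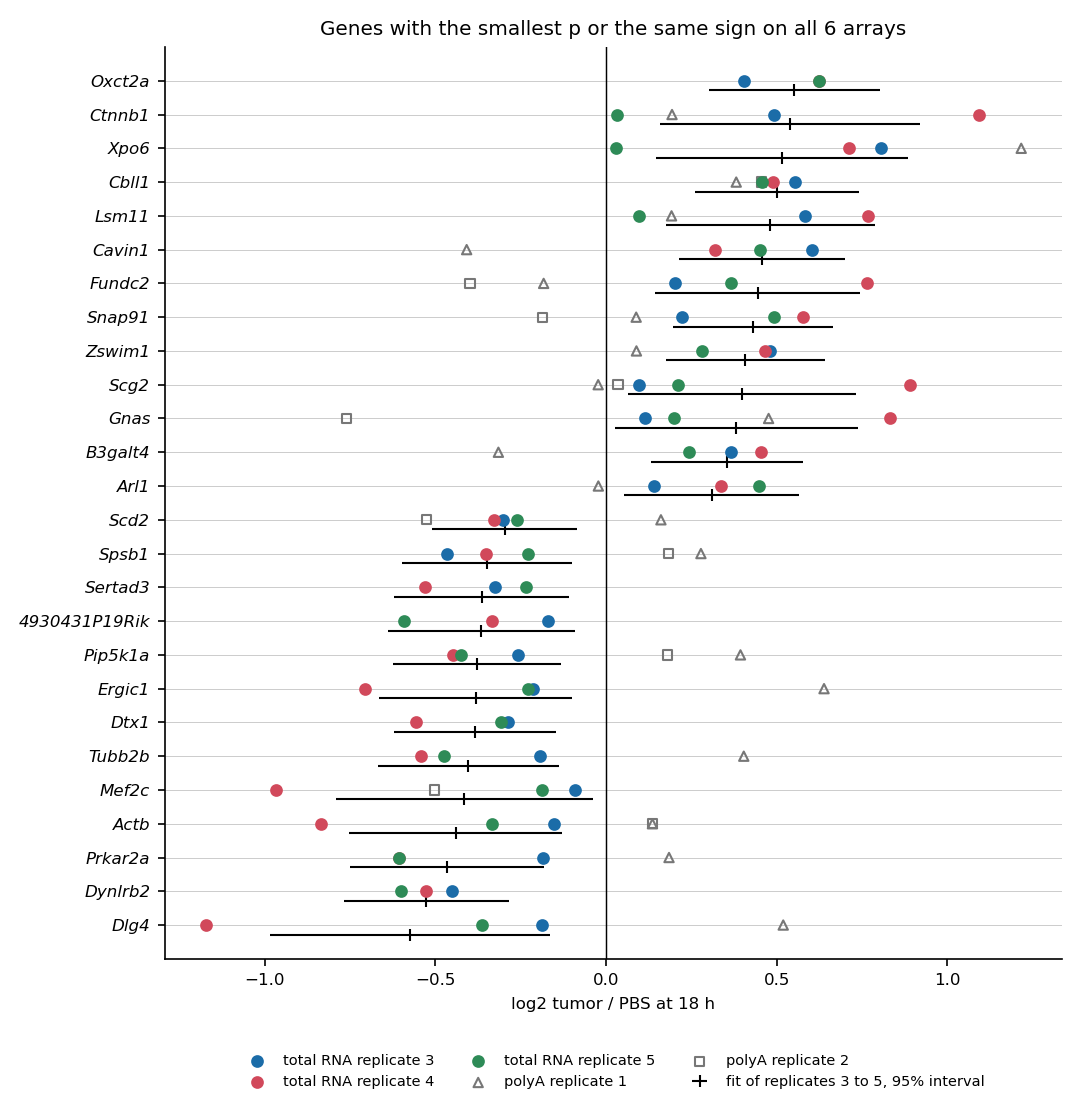
Log2 tumor over PBS at 18 h (horizontal axis) of the genes with the smallest p and of the highest and lowest among those with the same sign on all 6 total RNA arrays. Filled circles are total RNA replicates, open symbols polyA replicates, and black bars the fitted mean with its 95% interval, which takes no account of how many genes were examined. The circles of each gene lie on 1 side of 0 by the way the genes were chosen, and many open symbols lie on the other side.

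PolyA RNA did not keep the signs seen in total RNA. Of the 126 genes at an unadjusted p of 0.05, 39 of 89 (43.8%) had the same sign in polyA replicate 1 and 36 of 61 (59.0%) in polyA replicate 2. For the mean of both, which balances the dyes, the count was 25 of 50. Over all genes tested the shares were 51.2%, 46.3% and 48.4%. Of the 10 genes with the smallest p above 0, 6 of 9 measured were above 0 in polyA replicate 1. Of the 10 below 0, none of the 7 measured there was below 0. The polyA replicates themselves correlated at -0.36, over 1916 genes and in opposite dye orientations. Each polyA replicate has 1 orientation, so the dye and the sample cannot be told apart in it. Both polyA arrays were also of a different platform, so RNA type and platform cannot be told apart in these comparisons.

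Several of the largest ratios rested on 1 replicate. Of the 25 genes with an estimate beyond 0.5 in either direction, 14 lay above 0 and 11 below, and replicate 4 was farthest from 0 in 15 of them, a share near that over all genes tested (1381 of 2490, 55.5%). The mean of replicates 3 and 5 stayed beyond 0.5 on the same side in 8 of the 25 and crossed 0 in 4. The highest estimate was that of Phf12, a chromatin-binding PHD finger protein, at 1.10 ± 0.48 (SE, n = 3), chosen here after its values were seen. Its replicate values were 0.24, 3.16 and -0.12, and a single array, replicate 4 with tumor in Cy3, read 6.62. Timm13, a mitochondrial import chaperone, was at -0.09, 3.06 and -0.08, with the same replicate high. The lowest estimate, -0.88 ± 0.46 for the ciliary transport gene Ift81, came from replicate 5, where it was at -2.71, against -0.28 and 0.35 in replicates 3 and 4. The synaptic genes Cplx1 and Cyfip2 were at -1.64 and -2.21 in replicate 4 and between -0.41 and -0.03 in the other total RNA replicates. These sizes are descriptions of single replicates and were likewise picked after the values were seen.

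Hypothalamic peptide genes did not pass the test in either direction. Among magnocellular and releasing hormone genes, 5 of 14 listed were tested and none was called, with 5 estimates below 0 and a median of -0.06, against 0.00 for all genes tested. Without replicate 4, 3 of 7 lay above 0, with a median of -0.00. Oxt, the oxytocin gene, was at 0.01, 0.18 and -0.19 in total RNA and 0.03 and -0.01 in polyA RNA, on both sides of 0. Its estimate was -0.00, with a 95% interval from -0.26 to 0.25. Trh, the thyrotropin-releasing hormone gene, was at -0.30, -0.18 and -0.04, below 0 in each total RNA replicate, with an estimate of -0.18 ± 0.11 (SE, n = 3). Sst, which encodes somatostatin, Gnrh1, the gonadotropin-releasing hormone gene, and Crhr1, the receptor of corticotropin-releasing hormone, had estimates of -0.05, -0.06 and -0.11. Avp, the vasopressin gene, was measured in both orientations only in replicates 3 and 5, at 0.45 and 0.22, and at 0.04 in polyA replicate 1. All 3 of its values were above 0, but it was not tested.

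Of 17 feeding and arousal peptide genes, 4 were tested and none was called, with 3 above 0 and a median of 0.16. Cartpt, the precursor of the appetite-suppressing peptide CART, was at -0.23, 0.49 and 0.24, on both sides of 0, with an estimate of 0.17 ± 0.14 (SE, n = 3). Npvf, which encodes RFamide-related peptides, was at 0.21, 0.05 and 0.31, above 0 in each total RNA replicate, and at -0.09 in polyA replicate 1. Tac1, the substance P precursor, and Nucb2, the precursor of nesfatin, had estimates of 0.15 and -0.00, and another Tac1 probe averaged -0.23. Without replicate 4 the list's median was -0.00 over 6 genes. The lateral hypothalamic Hcrt, the orexin gene, was at -0.34 and 0.15 in replicates 3 and 5, and Pmch, the melanin-concentrating hormone gene, was at -0.15 in replicate 5 and at -0.51 and -0.95 in polyA RNA. Gal, the galanin gene, was at 0.45 in replicate 4, 0.01 in replicate 5 and 0.43 in polyA replicate 1. Each of these 3 lacked at least 1 total RNA replicate. Crh, Pomc, Npy and Agrp were not analysed here.

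Receptors of these peptides and of hormones had 5 of 23 members tested and none called, all 5 below 0, with a median of -0.16. The lowest was Tacr3, the neurokinin B receptor, at -0.14, -0.47 and -0.19, with an estimate of -0.27 ± 0.12 (SE, n = 3, unadjusted p = 0.049). Cckbr, a cholecystokinin receptor, was at -0.09, -0.44 and -0.04, and Ntrk2, the receptor of brain-derived neurotrophic factor, was at 0.08, -0.52 and -0.04. In each of these 3 receptors replicate 4 was the lowest. Without it the list's median was -0.06, with 1 of 5 above 0. Npy2r and Galr1, receptors of neuropeptide Y and galanin, had estimates of -0.06 and -0.04. Of 13 genes of peptide processing and the secretory granule, the 3 tested were above 0 with none called. They were Scg2 at 0.40, Cpd, a carboxypeptidase, at 0.16, and Chga, chromogranin A, at 0.14, and without replicate 4 the median of the 4 then measured was 0.02, against 0.16 with it.

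Genes that answer glucocorticoids and stress showed no shared direction. Of 23 listed, 6 were tested, 2 lay above 0 and 4 below, none was called, and the median was -0.05. Without replicate 4 the balance turned, with 5 of 8 above 0 and a median of 0.03. Hsd11b1, which encodes the enzyme that regenerates active glucocorticoid within cells, had the smallest p of the list. It was at 0.38, 0.33 and 0.26 in total RNA and 1.04 in polyA replicate 2, so all 4 measured replicates were above 0. On the arrays themselves 5 of 6 were above 0, and the replicate 4 array with tumor in Cy3 was at -0.04. The estimate was 0.33 ± 0.11 (SE, n = 3, unadjusted p = 0.014, adjusted p = 0.892). Mt1, a metallothionein induced by glucocorticoids and metals, was at -0.14, 0.38 and 0.19, and Dusp1, a phosphatase that inactivates MAP kinases, was at 0.02, -0.06 and 0.03. Klf9, a glucocorticoid-induced transcription factor, was at -0.03, -0.30 and -0.20, below 0 in each. Cebpd and Plin4 had estimates of -0.10 and -0.11. Fkbp5, a co-chaperone of the glucocorticoid receptor and a common reporter of its activity, was measured in both orientations in replicate 5 alone, at -0.18, and at -0.19 in polyA replicate 1.

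Immediate early genes, whose transcription follows neuronal activity within minutes, had 3 of 21 members tested and none called. Fos was at -0.21, 0.27 and 0.61 in total RNA and at 0.03 and 2.53 in polyA RNA, a wider spread than its neighbours in the list. Its arrays divided by dye in replicates 3 and 5: -1.72 and -0.16 with tumor in Cy5, and 1.30 and 1.38 with tumor in Cy3. The estimate of 0.22 ± 0.21 (SE, n = 3) thus averages a strong dye difference. Fosb was at 0.00, -0.33 and 0.13, and Egr3 at -0.03, -0.41 and 0.18, with replicate 4 lowest in both. The list's median was -0.07, and 0.07 over 7 genes without replicate 4. Among clock genes, 5 of 19 were tested, 4 lay above 0, none was called, and the median was 0.03. Per2, a repressor of the clock, was at 0.14, 0.91 and 0.08, with an estimate of 0.38 ± 0.17 (SE, n = 3), and 0.11 without replicate 4. Tef, a clock output factor, was at -0.20, -0.47 and -0.05, below 0 in each total RNA replicate, but at 0.40 and 0.17 in polyA RNA. Without replicate 4, 3 of 11 clock genes lay above 0, with a median of -0.05.

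**Figure D3:**
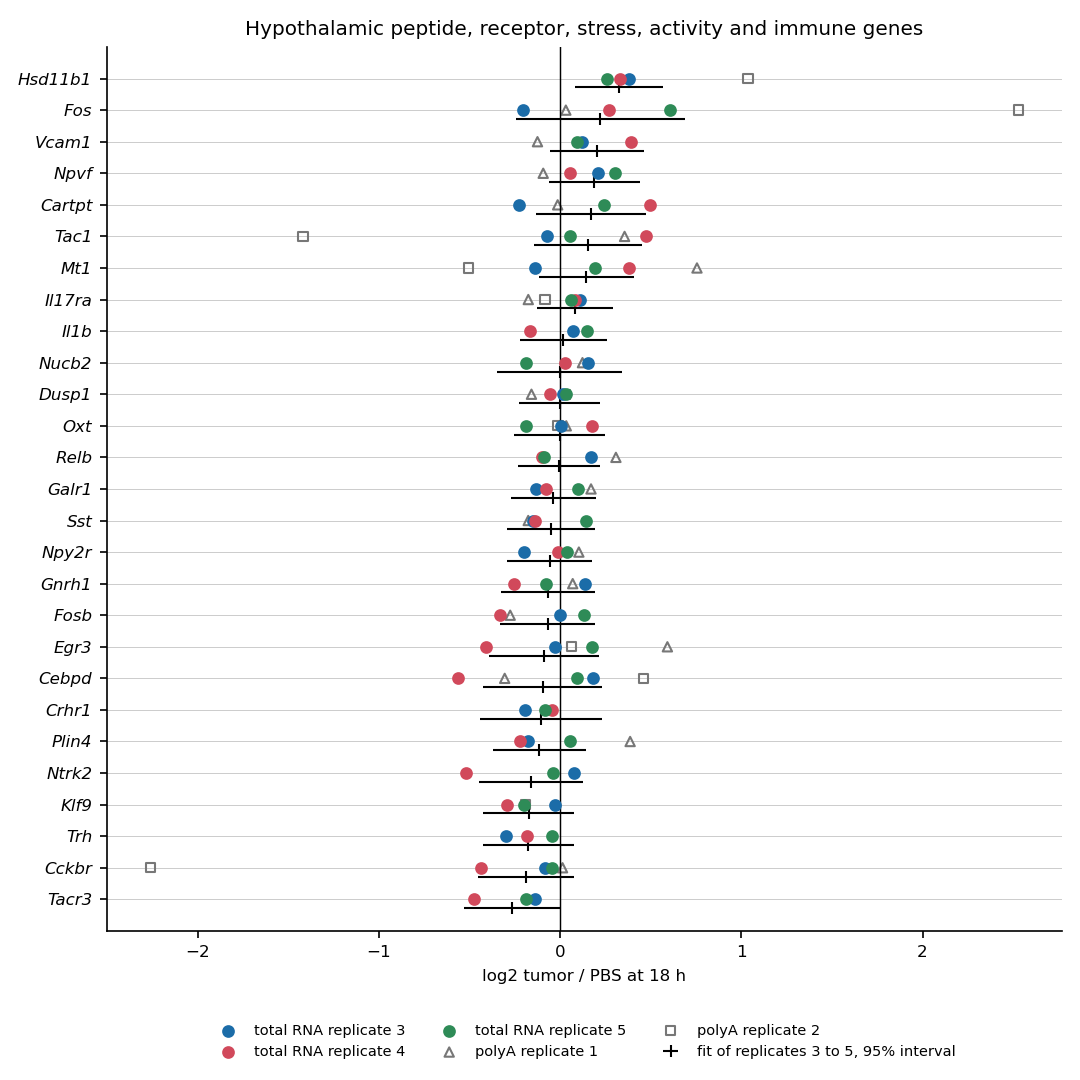
Log2 tumor over PBS at 18 h (horizontal axis) of the tested peptide, receptor, stress, activity and immune genes. Filled circles are total RNA replicates, open symbols polyA replicates, and black bars the fitted mean with its 95% interval. The intervals of all but Hsd11b1 and Tacr3 cover 0, and the values of polyA replicate 2 lie farthest out for Fos and Cckbr.

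Immune genes were seldom measured in all 3 total RNA replicates. Of 36 cytokine, chemokine and NF-kB response genes, 22 had a named probe. All 22 were measured in at least 1 total RNA replicate, but 4 were tested. Of these 4, 3 lay above 0 and none was called, with a median of 0.05. Without replicate 4, 5 of 6 lay above 0, with a median of 0.10. Il1b, which encodes the pyrogenic cytokine interleukin-1 beta, was at 0.07, -0.17 and 0.15, on both sides of 0. Its estimate was 0.02, with a 95% interval from -0.22 to 0.26. Vcam1, a vascular adhesion molecule induced by cytokines, was at 0.12, 0.39 and 0.09 in total RNA, above 0 in each replicate, and at -0.12 in polyA replicate 1. Il17ra, the interleukin-17 receptor, was at 0.11, 0.08 and 0.06 in total RNA, and at -0.18 and -0.08 in polyA RNA. Relb had an estimate of -0.01. Il6 was at 0.20 in replicate 5 and -0.12 in polyA replicate 1, Ccl2 at -0.04 and 0.20 in replicates 4 and 5, and Socs3, the feedback inhibitor of cytokine receptors, at 0.03 and 0.07 in the same replicates. Il6, Ccl2 and Socs3 did not reach 0.5 in either direction, but some other untested members did. Among them Cxcl1 was at -0.79 in replicate 5, Ccl4 at -0.89 in polyA replicate 1 and Ptges at 0.69 in polyA replicate 2. With genes measured in at least 2 total RNA replicates, 8 of 14 members lay above 0, with a median of 0.03.

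Of 29 interferon response and antigen presentation genes, 14 had a named probe, 3 were tested and none was called. Isg15, a ubiquitin-like protein induced by interferon, was at 0.13, -0.05 and 0.19, Sting1, which relays signals from DNA in the cytosol, at -0.09, -0.02 and -0.03, and Irf8, a microglial transcription factor, at -0.09, -0.32 and -0.04. Sting1 and Irf8 were below 0 in each total RNA replicate, and all 3 intervals covered 0. The list's median was -0.05, and 0.04 over 4 genes without replicate 4. Over members measured in at least 2 replicates, 9 of 12 lay above 0, with a median of 0.10, against 0.00 for all genes with such values. Oasl2, an interferon-induced antiviral gene chosen here after its values were seen, was at 0.58 and 0.61 in replicates 4 and 5. It was at -0.00 in polyA replicate 1 and was not measured in both orientations of replicate 3. In replicates 4 and 5, Irf7 of the same list was at 0.00 and 0.02, and Gbp2 at -0.42 and -0.26. In the acute phase and complement list, 10 of 20 members had a named probe. Serpina3n, an astrocytic protease inhibitor, was the single member tested, at -0.14, -0.26 and 0.10. Without replicate 4 the median of the 7 then measured was 0.02.

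Transmitter and energy genes had no called member. GABA and glutamate genes had 5 of 26 tested, 4 below 0, none called, with a median of -0.12. Gad2, which makes GABA, was at -0.06, -0.42 and -0.13, and Grin2b, an NMDA receptor subunit, at -0.43, -0.55 and 0.15. Without replicate 4 the median of this list was -0.03. Of 30 monoamine and acetylcholine genes, 5 were tested, 3 lay above 0, and none was called. Hdc, which makes histamine in the tuberomammillary nucleus, was at -0.01, -0.02 and 0.17, and Slc18a3, the vesicular acetylcholine transporter, at -0.37, -0.04 and -0.24. Of 29 insulin and energy sensing genes, 6 were tested, 4 lay above 0, and none was called, with a median of 0.04. Without replicate 4, 2 of 6 lay above 0, with a median of -0.06. The lowest was Irs2, an adaptor of the insulin and leptin receptors, at -0.15, -0.38 and -0.12 in total RNA and -0.08 and -0.26 in polyA RNA. All 5 replicates of Irs2 lay below 0, as in 18 of the 818 genes with values in every replicate, Irs2 included. Its estimate was -0.22 ± 0.11 (SE, n = 3, unadjusted p = 0.067). In sterol and fatty acid synthesis, 4 of 27 were tested, and beside Scd2 they were Nsdhl at 0.11, Fasn at -0.02 and Srebf1 at -0.05. That list's median was -0.03, and -0.02 without replicate 4.

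Genes of protein synthesis and of respiration were mostly below 0 in replicate 3 and mostly above 0 in replicate 4. The median of 27 cytosolic ribosomal protein genes was -0.11 in replicate 3, 0.31 in replicate 4 and -0.12 in replicate 5, with 4, 21 and 8 of the 27 above 0. For 29 oxidative phosphorylation genes the medians were -0.12, 0.36 and -0.00, with 2, 27 and 14 above 0. In replicate 5 the respiratory genes lay about equally on both sides of 0. Among all genes tested the medians were -0.03, -0.01 and 0.03, with 1102, 1215 and 1500 of 2490 above 0. Both lists hold bright genes: 22 of the 27 and 28 of the 29 were in the brightest 25% of the genes tested. Those 25% had medians of -0.04, 0.13 and 0.04, so replicate 4 was high for bright genes in general, and the lists went further. By array, oxidative phosphorylation was at 0.59 on the replicate 4 array with tumor in Cy5, the one that stood apart in brightness order, and at 0.10 on its partner. Ribosomal proteins were at 0.28 and 0.15 on that pair, at -0.11 and -0.16 on the replicate 3 pair, and at -0.28 and -0.05 on the replicate 5 pair. What part brightness has in these values was not tested.

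**Figure D4:**
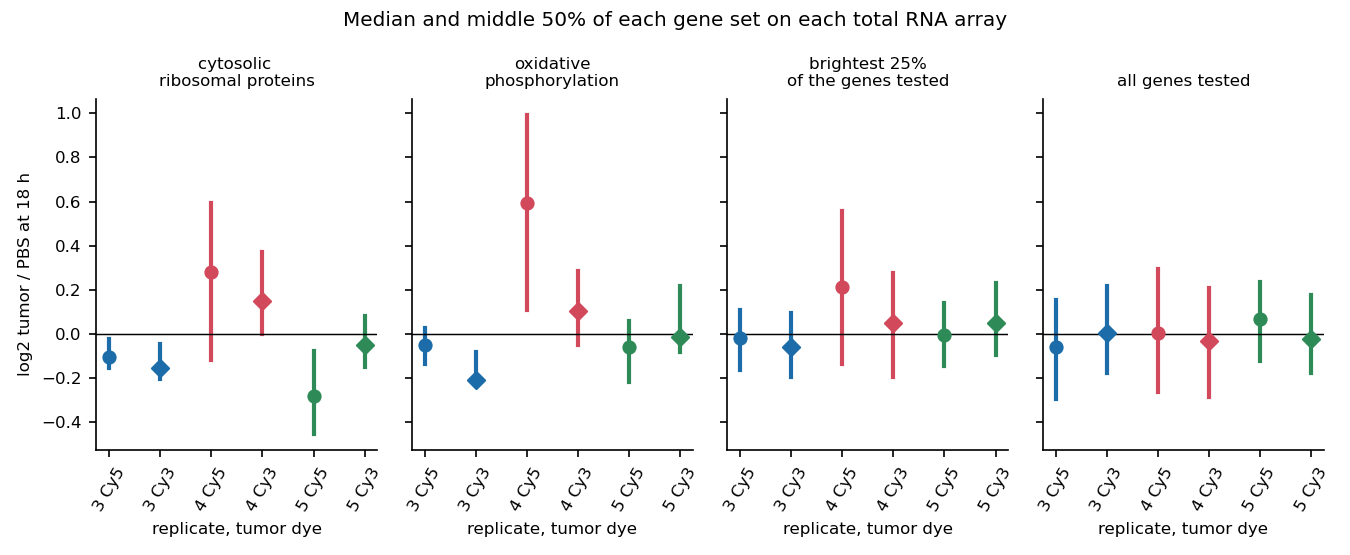
Median (symbols) and middle 50% (bars) of log2 tumor over PBS for ribosomal protein genes, oxidative phosphorylation genes, the brightest 25% of the genes tested and all genes tested, on each of the 6 total RNA arrays at 18 h. Circles have tumor in Cy5 and diamonds tumor in Cy3. Both gene lists are above 0 on the replicate 4 arrays and below 0 on the replicate 3 arrays.

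Single genes of these lists show the same division. Ndufa4, a subunit of the respiratory chain, was at -0.05, 0.92 and 0.02, and the complex I subunit Ndufb4 at -0.04, 0.75 and -0.09. Rps13 was at -0.29, 0.70 and 0.06, and Rps4x at -0.15, 0.56 and 0.00. Only replicate 4 was clearly above 0 in these 4 genes. Over the 3 replicates, the ribosomal list had 15 genes above 0 and 12 below, with a median of 0.00, and the oxidative phosphorylation list 23 above and 6 below, with a median of 0.08. With loess fitted within each printed block (print-tip loess), 9 of 27 and 16 of 29 lay above 0, with medians of -0.02 and 0.01. With median centring alone 14 and 21 did. With the authors' values 2 of 6 and 9 of 18 did, with medians of -0.01 and -0.00. Without replicate 4, 3 of 31 ribosomal genes lay above 0, with a median of -0.13, and 8 of 40 oxidative phosphorylation genes, with a median of -0.05. No member of either list was called, and 1 of them, Rpl22, had an unadjusted p under 0.05, at -0.48, -0.49 and 0.06. Proteasome and chaperone genes had 19 of 51 tested, 13 above 0, none called, with a median of 0.04, and 13 of 25 above 0 with a median of 0.00 without replicate 4. The highest were the chaperonin subunit Cct7, at 0.11, 0.65 and 0.04, and the proteasome lid subunit Psmd7, at 0.08, 0.38 and 0.26, and the lowest was the proteasome base subunit Psmd1, at -0.21, -0.75 and 0.02.

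**Figure D5:**
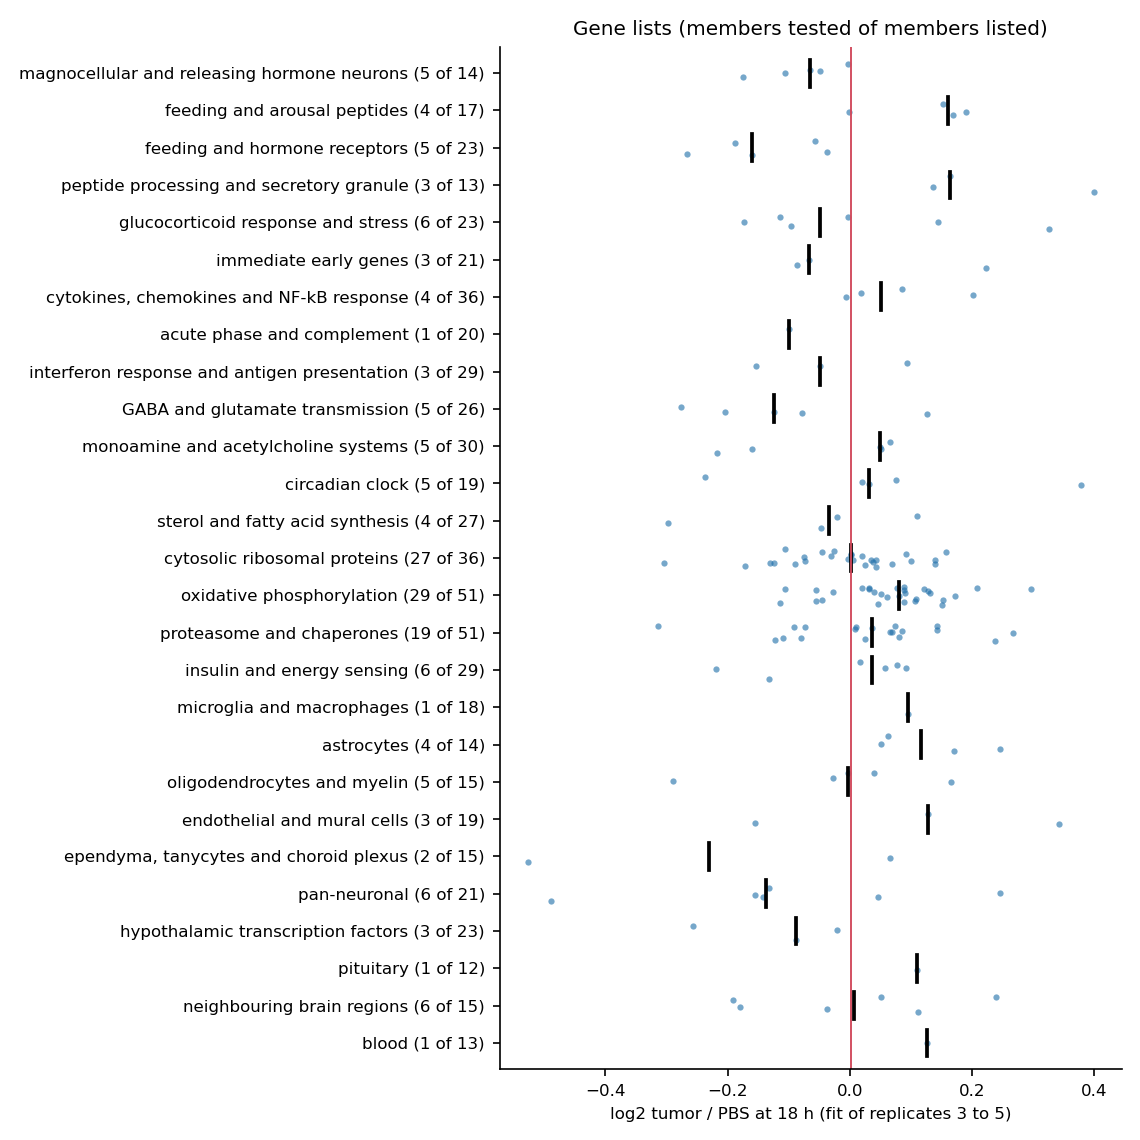
Log2 tumor over PBS at 18 h (horizontal axis) of the tested members of each gene list, 1 point for each gene, with the list median as a black bar and the median of all 2490 genes tested as a red line. Brackets give members tested of members listed. The lists lie around the red line, and most hold fewer than 10 tested genes.

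Markers of cell types were set beside these results to show whether the dissections differed. The hypothalamic genes Oxt, Avp, Hcrt, Pmch and Trh and the transcription factors Six6, Otp and Fezf1 were among the genes measured. This does not identify the tissue, since 8371 of 8726 genes were measured in at least 1 total RNA replicate. Neuronal markers had 6 of 21 tested, 2 above 0 and 4 below, with a median of -0.14, and of -0.01 over 10 genes without replicate 4. Map2, a dendritic microtubule protein, was at -0.56, -1.05 and 0.14, and Snap25, a synaptic SNARE protein, at 0.52, 0.08 and 0.14, so neuronal markers did not share a direction. Astrocyte markers had 4 of 14 tested, all 4 above 0, with a median of 0.12. Among them Ntsr2, an astrocytic neurotensin receptor, was at -0.04, 0.77 and 0.01, and S100b at -0.06, 0.17 and 0.40. Without replicate 4, 4 of 5 astrocyte markers lay above 0, with a median of 0.05. With print-tip loess 2 of 4 did, with a median of 0.06, and with median centring alone 4 of 4 did. Myelin markers had 5 of 15 tested, 2 above 0, with a median of -0.00, against 4 of 6 and 0.05 without replicate 4, and the lowest was Mal, a myelin proteolipid, at -0.22, -0.58 and -0.08.

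Endothelial and mural markers had 3 of 19 tested. Robo4, a receptor of the vascular endothelium, was at 0.19, 0.59 and 0.25 in total RNA and 0.13 and 1.13 in polyA RNA. All 5 replicates of Robo4 lay above 0, as in 15 of the 818 genes with values in every replicate, Robo4 included. Its estimate was 0.34 ± 0.12 (SE, n = 3, unadjusted p = 0.015), but the tight junction genes Ocln and Tjp1 were at 0.13 and -0.16. The list's median was 0.13, and -0.20 over 5 genes without replicate 4. Ependymal, tanycyte and choroid plexus markers had 2 of 15 tested, with a median of -0.23, and of -0.10 over 3 genes without replicate 4. Dynlrb2 was below 0 in each, whereas Fabp7, a fatty acid binding protein of tanycytes and astrocytes, was at -0.38, 0.10 and 0.48, and Foxj1, the master regulator of motile cilia, was at 0.07 and -0.26 in replicates 3 and 5. Hypothalamic transcription factors had 3 of 23 tested, all below 0, the lowest being Fezf1 at -0.62, 0.24 and -0.39, with a median of -0.09, and of -0.22 over 5 genes without replicate 4. The pituitary list had Tbx19 alone tested, at 0.11 (0.03 over 3 genes without replicate 4), markers of neighbouring brain regions had 3 of 6 above 0 with a median of 0.01 (0.04 over 7 genes without replicate 4), and the blood list had Cd79b alone tested, at 0.13. The microglial marker Cd68 was at -0.22, 0.18 and 0.33, an estimate of 0.09, and without replicate 4 that list's median was 0.05 over 4 genes. No marker list had a called member, and whether tissue composition has a part in single genes was not tested.

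The 18 h values were also set against the later times of the same design, 72 h and 192 h after injection, with 2 dye-swapped total RNA replicates each. The arrays of 192 h replicate 3 were of a different platform from the other total RNA arrays. Of 1696 genes measured at all times, 0 differed at an adjusted p of 0.05 (0%), the smallest adjusted p was 0.989, and 70 had an unadjusted p of 0.05 or less (4.13%). Zswim1 was at 0.41 at 18 h and between -0.23 and 0.05 in the 4 later replicates, a difference of 0.49 (unadjusted p = 0.005). Scd2 was at -0.30 at 18 h, at -0.01 and -0.14 in the 72 h replicates and at 0.37 and 0.29 in the 192 h replicates, a difference of -0.43 (unadjusted p = 0.008). B3galt4 was at 0.35 at 18 h and between -0.36 and -0.01 later. These 3 genes were picked for their 18 h values, and none passed the adjusted test. No gene is called particular to 18 h from this test.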

How the data were processed

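Each array had 3 scanner files of spot intensities, which the authors deposited with the background already subtracted, per the file headers; in 12% to 49% of the cells of an 18 h array this left an intensity of 0. Scanner settings and the probes' genome build are not stated there. The authors' deposited table of processed values was entered as a score, a log ratio whose base and normalization are not stated, and was used as an alternative. On the 18 h arrays its values correlated at 0.69 to 0.87 with the print-tip loess alternative made here. Their correlation with the reported values was not computed.

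A spot counted as measured where both channels were above 0. The log2 ratio of each scan was corrected by loess on intensity (span 0.3, 4 iterations), the scans were averaged, and the sign was set so that tumor is over PBS. A replicate value needed both orientations. Of the spots, 9066 carried 1 symbol, 12 several and 1002 none, and 8980 of the named spots matched RefSeq. Each gene was represented by the probe measured on the most of the 6 total RNA arrays, then the brightest. Genes with values in replicates 3, 4 and 5 were fitted in limma 3.58.1 (R 4.3.3) with 1 coefficient for each time over 7 total RNA replicates, with Benjamini-Hochberg adjustment over all genes tested. The fit was tested on simulated data.

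Named genes were the 10 with the smallest p in each direction among those with 1 sign in all 3 replicates, the 8 largest in each direction among those with 1 sign on 6 arrays, the 3 highest and 3 lowest of each list, and a fixed set of hypothalamic genes; others are marked where named. The lists and genes were chosen with earlier results of these data known. The number of arrays limits the precision. SEs and p-values rest on the spread between replicates as limma estimates it, with the later replicates and the other genes lending to the estimate. Alternatives covered normalization, scaling, background offset, scans, orientations and replicates required, dim genes, samples in the fit, the source of the values, single replicates left out and a replicate block.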

Additional observations from a re-analysis of the deposited data

Results flagged for a closer look

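Of 145 named genes, 113 had 4 or 5 replicate values at 18 h, and in 14 of them 1 value stood far from the rest by Dixon's gap test. The test marks about 1 gene in 20 by chance where all replicates have the same spread. PolyA replicate 2 had an SD over genes of 0.91, against 0.22 to 0.39 in the others, so the 14 cannot be read against that rate. All values are log2 tumor over PBS.

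PolyA replicate 2 held the outlying value in 7 genes. They were Tjp1 at 2.73, Hsd11b1 at 1.04, Mag at -1.09, Hspa9 at -1.41, Tac1 at -1.42, Ndrg2 at -1.85 and Cckbr at -2.26. The other replicates of Hsd11b1 lay between 0.26 and 0.38, on the same side of 0, whereas those of Ndrg2 lay between 0.05 and 0.52, on the other side.

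Total RNA replicate 4 held it in Scg2 at 0.89, Ntsr2 at 0.77 and Rps29 at 0.52, all above the rest. Replicate 5 held it in Sst at 0.14 and Rpl38 at -0.35, replicate 3 in Tspan2 at -0.22, and polyA replicate 1 in Sting1 at -0.65. Tspan2 lay between 0.29 and 0.47 in its other replicates.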

How the results depend on the processing

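The count of genes called at 18 h was 0 in the reported analysis and in every alternative run except 2. Leaving out 1 total RNA replicate at a time gave 0 to 1, and the 1 was Adam9 without replicate 5, at 0.97 (adjusted p = 0.0142), where its left-out value was -0.27. With the replicate number as a replicate block the count was 1 of 1434 genes, Phf12 (adjusted p = 0.00683), whose estimate rests on 1 array, and in the contrast with later times it was 6 of 1303 genes: Timm13, Phf12, Cplx1, Kdm5d, Aktip and Rex1bd. Replicates with the same number at different times had deviations that correlated between -0.08 and 0.08, so the numbers were not taken to pair samples. For that contrast the count was 0 in all other alternatives; a fit of the 18 h replicates alone gives no value for it. The genes tested ranged from 859 with the authors' values to 6285 with 2 of 3 replicates required. Requiring 2 of 3 scans, an alternative chosen after seeing the data, gave 0 of 1181.

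Among 132 tested named genes, estimates changed sign in 28 without replicate 4, 24 with polyA added without a dye term, 16 with print-tip loess, 14 with polyA added with a dye term, 12 with median centring, 12 without replicate 5, 7 without replicate 3, 3 with scaling between arrays and 2 with the median of the scans. With the authors' values 11 of 49 did. List counts moved as well. With print-tip loess, 1 of 5 clock genes and 4 of 6 glucocorticoid and stress genes lay above 0, against 4 and 2 as reported. The feeding and hormone receptors stayed at 0 of 5. Oxct2a, Cbll1, Dynlrb2, Scd2 and Hsd11b1 kept their sign in every alternative that measured them, from 0.39 to 0.62, 0.30 to 0.52, -0.56 to -0.43, -0.38 to -0.24 and 0.16 to 0.50. Each had 1 sign in all 3 total RNA replicates, so leaving out a replicate could not turn it. Other alternatives changed only which genes were tested or how the spread was estimated, so they could not move these estimates either. They were 1 orientation as enough, 2 of 3 replicates required, and the 18 h replicates alone. Dim genes left out, the replicate block and 2 of 3 scans required were of the same kind. The background offset also turned the sign of no named gene, and many other named genes kept theirs. Another 6236 named genes lacked a value in at least 1 total RNA replicate and were not tested.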
